A study of Mus musculus with 2 samples.

Results

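The 8 genes described here encode the Sm proteins of the mouse: Snrpb (SmB), Snrpd1 (SmD1), Snrpd2 (SmD2), Snrpd3 (SmD3), Snrpe (SmE), Snrpf (SmF), Snrpg (SmG) and Snrpn (SmN). They were taken by symbol from the 32285 genes of the deposited count matrices, and each symbol occurred 1 time in both libraries. The data are single-cell RNA-seq of whole spinal cords of FVB mice at postnatal day 4, with 1 library of the spinal muscular atrophy model (SMA: mSmn-/-, hSMN22tg/0) and 1 library of heterozygous littermates (Con: mSmn+/-, hSMN22tg/0). Both groups therefore carried the human SMN2 transgene and differed in the number of intact mouse Smn alleles. Each library was made from the pooled spinal cords of several pups, so that no animal can be told from another, and with 1 library per group no difference between SMA and Con has a replicate check. All intervals below are exact 95% intervals that cover counting error only, and no test was run.

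Sm proteins form a ring of 7 subunits around a uridine-rich site in the spliceosomal small nuclear RNAs (snRNAs) U1, U2, U4 and U5. The ring is loaded in the cytoplasm by the SMN complex, whose central protein SMN is depleted in spinal muscular atrophy, after pICln and the methylosome have gathered the Sm proteins and PRMT5 has methylated arginines in the tails of SmB, SmD1 and SmD3. The ring is put together from the subcomplexes SmD1-SmD2, SmE-SmF-SmG and SmB-SmD3. SmN takes the place of SmB in neurons. Snrpn, which encodes it, is expressed from the paternal allele in a chromosome region whose human counterpart is lost in Prader-Willi syndrome.

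In the GENCODE M21 annotation of GRCm38, all 8 genes are protein-coding. Snrpe lies at chr1:133603871-133610291 on the minus strand, Snrpb at chr2:130171414-130179403 on the minus strand, and Snrpg at chr6:86371304-86379328 on the plus strand. Snrpd2 lies at chr7:19149722-19153542 on the plus strand and Snrpn at chr7:59982495-60140219 on the minus strand. Snrpd3 lies at chr10:75517551-75537381 on the plus strand and Snrpf at chr10:93583029-93589706 on the minus strand. A 3′ library counts tags near the end of a transcript, so the last 300 bases of 1 protein-coding transcript of each gene were compared with all other annotated transcripts. Snrpe shared a run of 50 bases with 1 other gene, and the other 7 genes shared none. Exons of Gm38393 overlap the last 300 bases of Snrpn on the same strand and had 258 and 218 UMIs (unique molecular identifiers) in all barcodes of SMA and Con, against 10642 and 12550 for Snrpn. Exons of Ccdc38 overlap the end of Snrpf on the opposite strand and had 32 and 19 UMIs. Snurf, which shares the 5′ part of the Snrpn locus, had 0 UMIs in both libraries.

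The promoters of Snrpe, Snrpf and Snrpg are shown because these 3 genes were higher together in SMA. Each runs from 250 bases before the RefSeq start site to 50 bases from it (GRCm38.p6, 5′ to 3′ on the gene's strand), and capitals mark CCGGAAG (the core of sites of ETS factors), CCAAT, TGACGTCA (the cyclic AMP response element) or any of the other motifs searched, on either strand.
Snrpe, chr1:133610231-133610530: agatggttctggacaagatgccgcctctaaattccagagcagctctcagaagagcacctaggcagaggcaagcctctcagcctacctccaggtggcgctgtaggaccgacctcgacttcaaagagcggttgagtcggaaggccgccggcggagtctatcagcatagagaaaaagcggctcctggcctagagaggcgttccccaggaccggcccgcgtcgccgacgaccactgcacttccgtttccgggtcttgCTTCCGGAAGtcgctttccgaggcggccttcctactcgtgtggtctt
Snrpf, chr10:93589609-93589908: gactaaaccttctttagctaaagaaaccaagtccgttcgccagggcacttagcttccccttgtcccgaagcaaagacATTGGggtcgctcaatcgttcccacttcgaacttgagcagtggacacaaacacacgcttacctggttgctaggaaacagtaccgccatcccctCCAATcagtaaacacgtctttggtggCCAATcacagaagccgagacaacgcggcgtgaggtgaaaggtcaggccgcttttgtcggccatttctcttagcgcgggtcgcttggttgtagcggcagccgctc
Snrpg, chr6:86371290-86371589: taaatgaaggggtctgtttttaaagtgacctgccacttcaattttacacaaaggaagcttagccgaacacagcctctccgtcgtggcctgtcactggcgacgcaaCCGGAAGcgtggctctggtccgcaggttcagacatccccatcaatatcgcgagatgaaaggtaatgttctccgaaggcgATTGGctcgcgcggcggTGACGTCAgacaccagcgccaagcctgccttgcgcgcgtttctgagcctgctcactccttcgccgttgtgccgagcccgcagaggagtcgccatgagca
CCGGAAG was found in the promoters of Snrpe and Snrpg, and in 8.86% of all 32851 RefSeq promoters of the same length. In Snrpe it occurred on both strands in overlapping copies. CCAAT was found in Snrpf and Snrpg, in Snrpd3 and in 1 of the Snrpn windows, at chr7:60450128-60450427, and in 37.4% of all promoters. TGACGTCA was found in Snrpg only among the 9 entries of the 6 genes that matched (all but Snrpb and Snrpd1), and in 1.79% of all promoters. The NRF1 palindrome (4.6% of all promoters) and GGGCGG (the GC box, 35.7%) were found in Snrpd2, GGGCGG also in Snrpd3, and CACGTG (the E-box, 7.15%) in none of the 9. No searched motif was shared by the promoters of Snrpe, Snrpf and Snrpg, which says only that these letters are not in all 3 windows.

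RefSeq gives Snrpn 4 start sites. Their windows, shown because the level of Snrpn differed most between cell classes among the 8 genes, share a run of 10 bases, ACGCATGCGT, found by comparing the 4 windows and present in 0.107% of all promoters (35 of 32851). In the 30 bases shown from each window the shared run is in capitals.
Snrpn, window chr7:60005150-60005449: cagccattgcctgggACGCATGCGTaggga
Snrpn, window chr7:60047929-60048228: gcaaacatgcACGCATGCGTcgttgaaggt
Snrpn, window chr7:60140176-60140475: gcaaacatccACGCATGCGTgatgggaggg
Snrpn, window chr7:60450128-60450427: gcaaacatccACGCATGCGTgattggaagg
Counted from the start site, the first base of the run was at 35, -72, -79 and -64.

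The deposited matrices listed 26921 SMA and 25419 Con barcodes with 85872075 and 97894084 UMIs, where about 3000 cells had been targeted per library. Of these, 8163 barcodes were listed in both libraries, and such barcodes were left out of SMA, among them 6509 that passed the limits on cells. After limits on genes and mitochondrial reads, and without 1 Con cluster of 1340 barcodes rich in ribosomal protein reads (the high-ribosome cluster), 6787 SMA and 8916 Con cells were used, with a median of 6109 and 6232 UMIs. The cells were grouped without the Sm genes, and 33 of 35 clusters were named from marker genes as 13 cell classes, with 6271 SMA and 7802 Con cells in the 12 classes other than erythroid cells (the named cells). Classes are called by their markers, such as OPC-like (oligodendrocyte precursor) and COP-like (committed oligodendrocyte precursor) cells, and at least 4 markers of its class were detected in every named cluster. In 3 classes the libraries differed in depth: the median was 8055 and 1926 UMIs in SMA and Con oligodendrocyte-like cells, 7290 and 1746 in macrophage-like cells, whose cluster was led by the neutrophil gene S100a8, and 8733.5 and 3481 in fibroblast-like cells, most of which came from different clusters in the libraries. Globin reads made up 10666 and 18649 counts per 1000000 UMIs (CPM) of the named cells of SMA and Con, and Xist, which is expressed in female cells, stood at 1.65 and 615.6 CPM. The classes also made up different shares of the named cells. OPC-like cells were 1914 of 6271 in SMA and 1633 of 7802 in Con, and fibroblast-like cells 64 and 600. The part of depth, globin, sex and class shares in the differences below was not tested.

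Smn1, the gene targeted in the model, was counted in both libraries. It had 52.2 CPM in SMA and 51.0 CPM in Con named cells, a log2 ratio of 0.03 (-0.05 to 0.11). The levels did not differ beyond counting error. Where its tags lie relative to the disrupted part of the gene, and whether transcripts of the human transgene are counted with them, was not tested, so these counts do not check the genotype and the libraries are called SMA and Con by their labels alone.

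Every Sm gene was found in every class. The summed level of the 7 genes other than Snrpn (the Sm core sum) was highest in OPC-like cells, with 2975 CPM in SMA and 2692 CPM in Con, and lowest in microglia-like cells, with 1544 and 1226 CPM. The order of the 12 classes was similar in the libraries, with a Spearman coefficient of 0.93 over 12 classes that share their library. COP-like cells came after OPC-like cells in both, with 2653 CPM in SMA and 2350 CPM in Con. Astrocyte-like, macrophage-like and oligodendrocyte-like cells lay near the lower end, between 1472 and 1711 CPM. Among the 11 pairs of neighbours in this order, the counting intervals of 7 overlapped in either library, among them mural-like, endothelial-like and ependymal-like cells in SMA (2321 to 2382 CPM). In erythroid cells, where globin took most reads, the sum was 234.5 and 231.9 CPM, or 1626 and 1534 CPM of the reads that are not globin.

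**Figure D1:**
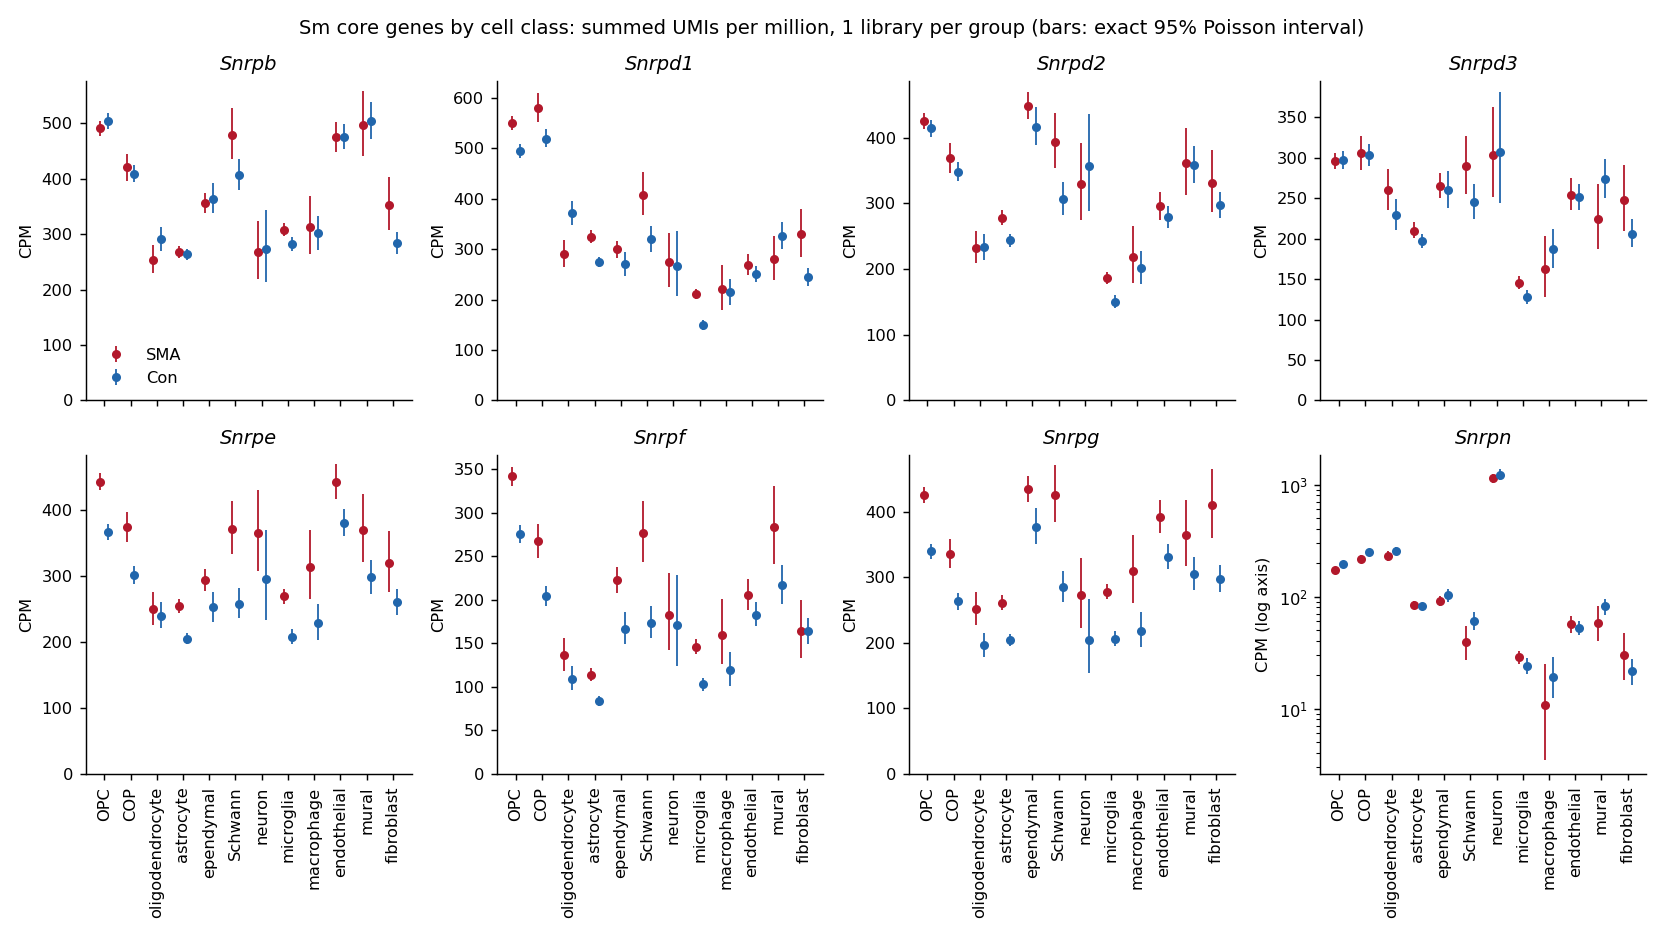
Level of each Sm gene (CPM of summed UMIs, vertical axis; log axis for Snrpn) in 12 cell classes (horizontal axis) in the SMA and Con libraries, with exact 95% Poisson intervals. Snrpd1 is highest in COP-like and OPC-like cells, and Snrpn reaches 1139 and 1229 CPM in neuron-like cells.

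The genes did not share 1 profile over the classes. Snrpd1 (chr18:10617775-10642079, plus strand), whose protein binds SmD2, was highest in COP-like cells (581 CPM in SMA, 519 in Con) and lowest in microglia-like cells (211 and 149 CPM). Snrpf ranged from 342 and 275 CPM in OPC-like cells to 114 and 83.8 CPM in astrocyte-like cells, a 3.01-fold and 3.29-fold range. Snrpd2 and Snrpg were highest in ependymal-like cells, with 449 and 417 CPM and with 434 and 377 CPM, although each interval overlapped that of the next class. Snrpb was highest in mural-like cells, with 498 CPM in SMA and 505 CPM in Con. Its level overlapped that of OPC-like and endothelial-like cells in counting error. Snrpe was high in OPC-like and endothelial-like cells, at 443 and 443 CPM in SMA and 366 and 381 CPM in Con. Snrpd3 was lowest in microglia-like cells, with 145.5 and 127 CPM, and reached 306 and 304 CPM in COP-like and 303 and 307 CPM in neuron-like cells. Over the 12 classes, Pearson correlations of log2 levels between pairs of these 7 genes had a median of 0.62 in SMA and 0.68 in Con (21 pairs), and those with Snrpn had a median of 0.15 and 0.36 (7 pairs).

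The comparison of SMA with Con asks whether the genes of the Sm ring differ between the libraries so labelled. Snrpe, Snrpf and Snrpg, which encode the SmE-SmF-SmG subcomplex, were above Con in SMA in 11 of 11 classes compared, with intervals above 0 in 10, 9 and 11 of them. With the shared barcodes kept, each was above Con in 10 of 11. Snrpf was also above Con in 10 of 11 with each cell weighted equally, with globin genes left out of the total and with a mitochondrial limit of 20%. Snrpb and Snrpd3, which encode the SmB-SmD3 pair, were near the same level in both libraries. Snrpd1 and Snrpd2 lay between, except that Snrpd2 lay below Snrpb with the high-ribosome cluster kept. In named cells the ratios of Snrpe, Snrpf and Snrpg stood at percentiles 82.4, 88.2 and 87.5 of the 14396 genes compared. Of the 88 pairs of gene and class, 86 had at least 100 UMIs in the libraries together, and of these 69 were higher and 17 lower in SMA. The median gene of a class had a log2 ratio between -0.07 and 0.06. All classes come from the same 2 libraries, so the pairs are not independent. Past 1.2-fold, 32 pairs (37.2%) were higher and 4 (4.65%) lower, where 18.1% of all pairs of gene and class were past 1.2-fold higher and 18.7% lower. Of the 32 pairs, 25 were among the 33 of Snrpe, Snrpf and Snrpg and 7 among the 53 of the other genes. With the shared barcodes kept in SMA, the counts were 21 higher and 2 lower.

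By class, 3 of 8 genes were past 1.2-fold higher and 0 lower in OPC-like cells (13% and 14.1% of all genes compared there), in COP-like cells (21.4% and 15.7%) and in astrocyte-like cells (9.75% and 20.5%). These were Snrpe, Snrpf and Snrpg each time. In microglia-like cells 5 of 8 were higher and 0 lower (21.3% and 10.4%), with Snrpd1 and Snrpd2 beside the same 3. In ependymal-like cells 1 was higher and 0 lower (12.5% and 20.0%). In endothelial-like cells none was past 1.2-fold (19.1% and 19.8%). In Schwann-like cells 5 were higher and 1 lower (25.2% and 18.4%), and in mural-like cells 2 were higher and 2 lower (19.6% and 25.0%). In the classes of unequal depth, 2 of 8 were higher and 1 lower in oligodendrocyte-like cells (21.4% and 20.8%), 3 of 7 higher and 0 lower in macrophage-like cells (27.3% and 25.8%), and 5 of 7 higher and 0 lower in fibroblast-like cells (30.5% and 34.6%). The share of all genes past 1.2-fold was thus largest in fibroblast-like and macrophage-like cells.

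Snrpe had 338 CPM in SMA and 276 CPM in Con named cells, a log2 ratio of 0.29 (0.26 to 0.33). It was past 1.2-fold in 8 of 11 classes, from 0.06 (-0.13 to 0.25) in oligodendrocyte-like to 0.53 (0.32 to 0.73) in Schwann-like cells. Its call in named cells was lost with the shared barcodes kept (0.22), with a limit of 6000 genes (0.257), with the high-ribosome cluster kept (0.23) and under TMM (0.24). Snrpf had 217 CPM in SMA and 166 CPM in Con, a log2 ratio of 0.39 (0.34 to 0.43). It was past 1.2-fold in 9 classes, and its smallest values were 0.00 (-0.33 to 0.32) in fibroblast-like cells and 0.17 (-0.001 to 0.34) in endothelial-like cells. In the fibroblast-like cells Snrpf was thus at the same level in both libraries, at 164 CPM each. Snrpg had 347 CPM in SMA and 267 CPM in Con, a log2 ratio of 0.38 (0.34 to 0.41), and was past 1.2-fold in 8 classes with an interval above 0 in all 11. Its range was 0.20 (0.08 to 0.33) in ependymal-like to 0.58 (0.39 to 0.77) in Schwann-like cells. With the shared barcodes kept, Snrpe was past 1.2-fold in 4, Snrpf in 5 and Snrpg in 5 of 11 classes.

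The sum of these 3 genes was 902 CPM in SMA and 709 CPM in Con, a log2 ratio of 0.35 (0.33 to 0.37). It was formed with the values of the genes known. In OPC-like cells it was 1211 and 981 CPM, in astrocyte-like cells 630 and 493 CPM, and in microglia-like cells 693 and 518 CPM. The log2 ratios were 0.30 (0.27 to 0.34), 0.35 (0.30 to 0.41) and 0.42 (0.36 to 0.48). With the shared barcodes kept in SMA, the log2 ratio of the sum in named cells was 0.25, and it was higher in SMA in 10 of 11 classes. The exception was the oligodendrocyte-like class, at -0.10.

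Snrpb had 377 CPM in SMA and 370 CPM in Con named cells, a log2 ratio of 0.03 (-0.01 to 0.06), and Snrpd3 had 240 and 234 CPM, a log2 ratio of 0.04 (-0.002 to 0.075). Snrpb was higher in 6 and lower in 5 classes, and Snrpd3 higher in 8 and lower in 3. Under TMM scaling the named-cell values of both were below 0, at -0.03 and -0.02. In fibroblast-like cells Snrpb was past 1.2-fold, at 353 CPM in SMA and 284 CPM in Con, a log2 ratio of 0.31 (0.09 to 0.53). This call was lost in cells of at least 5000 UMIs (0.22), with a limit of 6000 genes (0.24) and with a mitochondrial limit of 20% (0.24). Snrpd1 had 374 and 335 CPM, a log2 ratio of 0.16 (0.12 to 0.19), and Snrpd2 had 327 and 296 CPM, a log2 ratio of 0.14 (0.11 to 0.18). With the high-ribosome cluster kept, the ratio of Snrpd2 was 0.04 (0.006 to 0.08) and that of Snrpb 0.06, and with the shared barcodes kept that of Snrpd2 was 0.09. The log2 ratio of Snrpd1 had the widest range over classes among the 7. It was 211 CPM in SMA and 149 CPM in Con microglia-like cells, a log2 ratio of 0.50 (0.39 to 0.62), and 290 and 371 CPM in oligodendrocyte-like cells, a log2 ratio of -0.36 (-0.52 to -0.19). The oligodendrocyte-like cells are among the classes of unequal depth. The call of Snrpd1 there was lost with a limit of 6000 genes (-0.20), and the ratio was above 0 with a mitochondrial limit of 20% (0.26). Snrpd3 was at -0.28 (-0.58 to 0.0005) in mural-like cells and 0.26 (-0.007 to 0.53) in fibroblast-like cells, both just past 1.2-fold and within counting error of 0, and neither was past it with the shared barcodes kept. Over the named cells the Sm core sum was 2220 CPM in SMA and 1946 CPM in Con, a log2 ratio of 0.19 (0.18 to 0.20), and 0.13 with the shared barcodes kept. The sum ranged from 0.00 (oligodendrocyte-like) to 0.41 (0.33 to 0.48, Schwann-like) and was past 1.2-fold in 3 of 11 classes. In oligodendrocyte-like cells the direction was not stable, with -0.20 (-0.27 to -0.14) with the shared barcodes kept and 0.25 (0.17 to 0.34) with a mitochondrial limit of 20%.

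Snrpn had 118 CPM in SMA and 125 CPM in Con named cells, a log2 ratio of -0.08 (-0.14 to -0.03). It was lower in 6 of the 9 classes in which it had 100 UMIs. In OPC-like cells it was 172 and 194 CPM, a log2 ratio of -0.17 (-0.26 to -0.08), and in COP-like cells 216 and 248 CPM, a log2 ratio of -0.20 (-0.34 to -0.07). With the high-ribosome cluster kept, its log2 ratio in named cells was 0.01, and with each cell weighted equally it was 0.00.

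**Figure D2:**
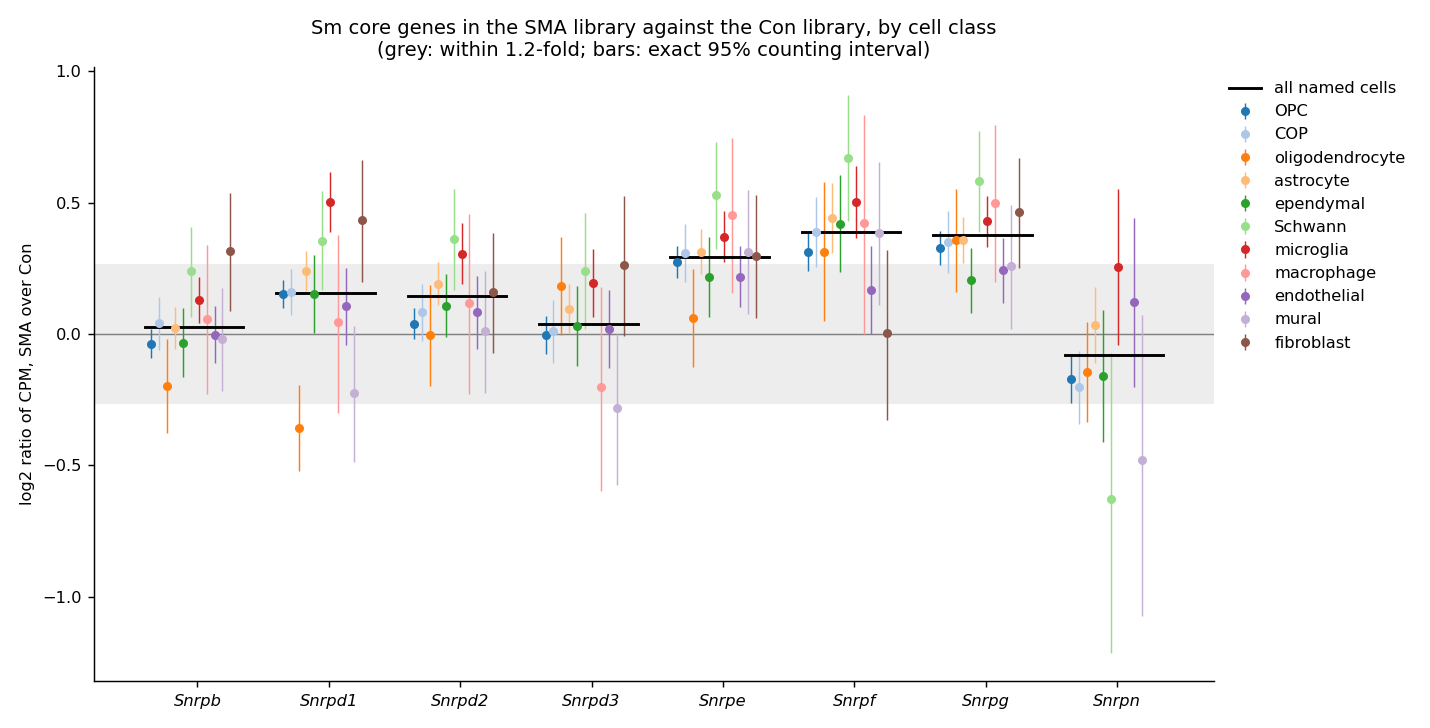
log2 ratio of CPM of SMA over Con (vertical axis) of each Sm gene (horizontal axis) in 11 cell classes (coloured points, exact 95% counting intervals) and in all named cells (black lines). The grey band marks changes within 1.2-fold; Snrpe, Snrpf and Snrpg lie above 0 in 11 of 11 classes, while Snrpb lies above 0 in 6.

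The median log2 ratio of all genes compared was between -0.07 and 0.06 in the 11 classes, so the values above are close to changes relative to the median gene. TMM scaling shifted fibroblast-like cells by 0.15 and no other class by more than 0.09. The genes of the ring are short, with a median protein-coding transcript of 503 bases for Snrpe, 861 for Snrpf and 1055 for Snrpg. Among the 2396 genes of up to 1000 bases in named cells, the median log2 ratio was 0.03. The share of them past 1.2-fold was 19.1% higher and 14.1% lower. Among genes of 1000 to 2000 bases, where Snrpb, Snrpd2, Snrpd3 and Snrpg fall, the median was -0.01 and 16.3% were past 1.2-fold higher. Of the genes of up to 1000 bases, 32.5% were past 1.2-fold higher in Schwann-like and 38.7% in fibroblast-like cells. This share was 13.7% in OPC-like, 11.9% in astrocyte-like, 12.4% in ependymal-like and 19.4% in microglia-like cells. In the remaining classes it was between 20.4% (mural-like) and 31.4% (macrophage-like).

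The Sm core sum differed more between cells in and out of the cell cycle than between the libraries in the 3 classes compared. In each class, cycling cells were those with at least 3 UMIs of 20 cycling genes after thinning to 1000 UMIs, and non-cycling cells those with 0. In OPC-like cells the Sm core sum was 3671 CPM in 435 cycling and 2613 CPM in 1132 non-cycling SMA cells, and 3221 and 2352 CPM in 423 and 876 Con cells. The log2 ratios were 0.49 (0.46 to 0.53) and 0.45 (0.41 to 0.49), where the median gene was at -0.14 and -0.13. The sum was also higher in cycling astrocyte-like cells, by 0.61 and 0.60, and in cycling microglia-like cells, by 0.64 (0.57 to 0.71) and 0.84 (0.74 to 0.93) on the log2 scale. Cycling cells had more UMIs in 5 of the 6 pairs, with medians of 6937 against 5389.5 in SMA OPC-like cells, and the part of this depth in the ratios was not tested.

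Past 1.2-fold, 6 of the 8 genes were higher and 1 lower in cycling OPC-like cells of SMA, against 15.6% and 37.0% of all genes, and 5 higher and 1 lower in Con, against 16.0% and 34.7%. In astrocyte-like cells 6 were higher and 0 lower in SMA (25.3% and 30.0% of all genes), and 6 higher and 1 lower in Con (23.3% and 28.3%). In microglia-like cells 7 were higher and 1 lower in SMA (25.0% and 27.5%), and 7 higher and 0 lower in Con (30.2% and 27.3%). Snrpd1 had the largest ratio of the 7 in each class and library. It went from 456 to 740 CPM in SMA and from 401 to 660 CPM in Con OPC-like cells, log2 ratios of 0.70 (0.62 to 0.78) and 0.72 (0.63 to 0.81). In microglia-like cells its log2 ratios were 0.98 and 1.42. Snrpd3, whose protein pairs with SmB, had the smallest in OPC-like and astrocyte-like cells. It was 315 CPM in cycling and 284 CPM in non-cycling SMA OPC-like cells, and 325 and 274 CPM in Con, log2 ratios of 0.15 (0.04 to 0.26) and 0.25 (0.13 to 0.37). Snrpb, from the same pair, had 598 against 424 CPM in SMA and 587 against 445 CPM in Con, with log2 ratios of 0.50 and 0.40. Snrpn went the other way in OPC-like cells, with 139 CPM in cycling and 188 CPM in non-cycling cells of SMA and 168 and 211 CPM in Con. Its log2 ratios of -0.44 (-0.61 to -0.28) and -0.33 (-0.49 to -0.18) compare with the median gene at -0.14 and -0.13. In astrocyte-like cells it was 0.09 (-0.29 to 0.45) in SMA and -0.55 (-0.95 to -0.17) in Con.

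**Figure D3:**
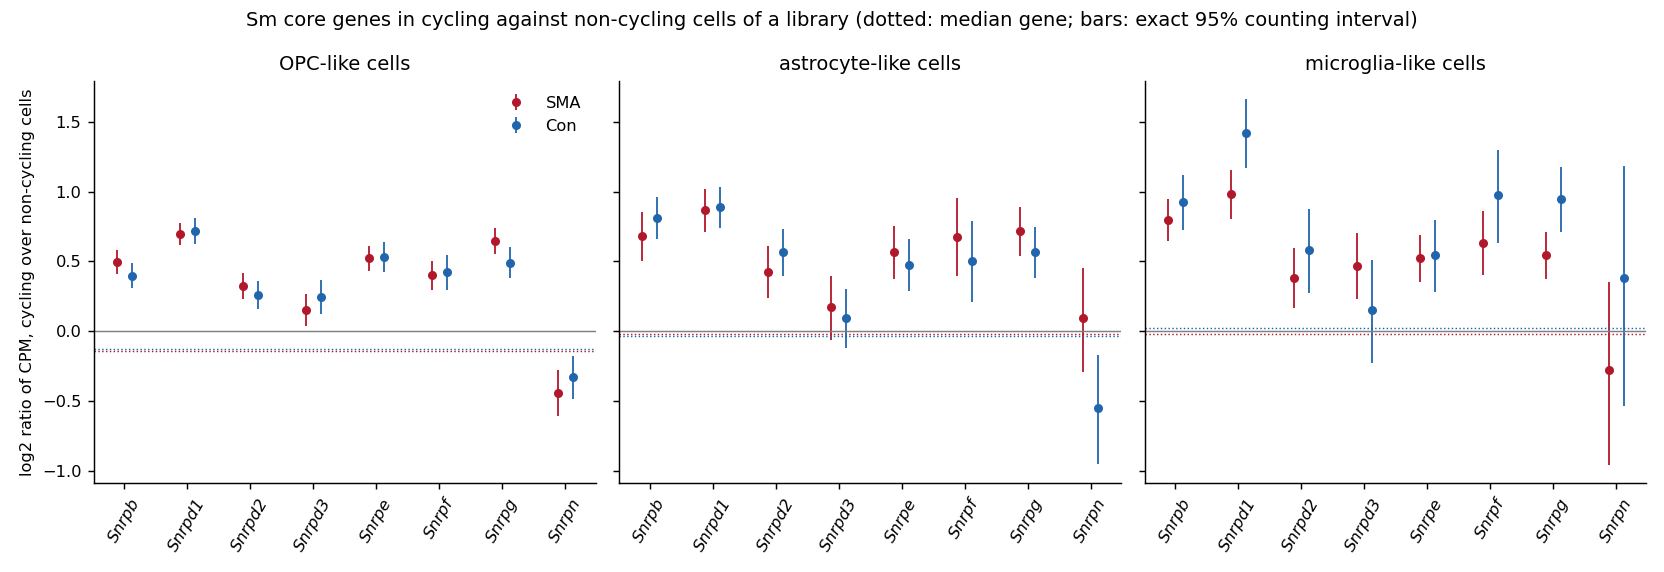
log2 ratio of CPM in cycling over non-cycling cells (vertical axis) of each Sm gene (horizontal axis) in OPC-like, astrocyte-like and microglia-like cells of each library, with exact 95% counting intervals and the median gene as dotted lines. Snrpd1 has the highest value of the 8 genes in each panel, from 0.70 to 1.42.

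The higher levels of Snrpe, Snrpf and Snrpg in SMA were seen within cycling and within non-cycling cells. Their sum had a log2 ratio of SMA over Con of 0.35 (0.29 to 0.42) in cycling and 0.31 (0.25 to 0.36) in non-cycling OPC-like cells. In astrocyte-like cells the ratios were 0.45 (0.30 to 0.60) and 0.32 (0.25 to 0.38). In microglia-like cells they were 0.14 (-0.03 to 0.31), which did not exceed counting error, and 0.39 (0.31 to 0.46). Cycling cells made up 22.7% of SMA and 25.9% of Con OPC-like cells, 8.10% and 8.14% of astrocyte-like cells and 10.8% and 7.48% of microglia-like cells. In Schwann-like cells, whose Sm core ratio was highest, they made up 17.4% and 8.48%, and their part in that ratio was not tested.

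Along the oligodendrocyte lineage the Sm core sum was higher in OPC-like than in COP-like cells, with log2 ratios of 0.17 (0.13 to 0.20) in SMA and 0.20 (0.17 to 0.23) in Con, where the median gene was at 0.07 and 0.12. At clustering resolution 2 the SMA ratio was 0.067 and the Con ratio 0.13. Past 1.2-fold, 2 of the 8 genes were higher and 1 lower in SMA, against 33.6% and 20.9% of all genes, and 4 higher and 1 lower in Con, against 38.9% and 20.5%. Only 1 SMA and 2 Con COP-like cells were cycling. Among non-cycling cells, the sum was 2613 CPM in OPC-like and 2636 CPM in COP-like cells of SMA, and 2352 and 2350 CPM in Con. The log2 ratios of -0.01 (-0.05 to 0.03) and 0.00 (-0.03 to 0.04) did not exceed counting error. The median gene was above both intervals, at 0.07 and 0.11. Under this equal sum, Snrpd1 was lower in non-cycling OPC-like than in COP-like cells, with 456 against 575 CPM in SMA and 401 against 522 CPM in Con, log2 ratios of -0.33 (-0.42 to -0.24) and -0.38 (-0.46 to -0.30). Snrpf was higher, with 307 against 270 CPM and 243 against 207 CPM, log2 ratios of 0.19 (0.06 to 0.31) and 0.24 (0.12 to 0.35). Its SMA interval included the median gene. From COP-like to oligodendrocyte-like cells, a class of 2 joined clusters, the sum was lower by 0.66 (0.60 to 0.73) in SMA and 0.49 (0.44 to 0.54) in Con on the log2 scale, where the median gene was lower by 0.30 and 0.31. The median depth of COP-like and oligodendrocyte-like cells was 7696 and 8055 UMIs in SMA and 8274 and 1926 UMIs in Con. The part of this depth was not tested. Snrpf was lower by 0.97 and 0.90, and Snrpd3 by 0.23 and 0.41. Snrpn was at 216 and 230 CPM in SMA and 248 and 254 CPM in Con, and was above its level in OPC-like cells in both classes.

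In neuron-like cells, of which there were 43 in SMA and 26 in Con, Snrpn had 1139 CPM (1036 to 1250) in SMA and 1229 CPM (1099 to 1370) in Con. These cells formed 1 cluster, led by Pkd2l1, Cartpt, Snhg11, Slc30a3 and Slc32a1. Whether its values hold for other neurons of the cord was not tested. The class with the next highest level was the oligodendrocyte-like one, with 230 CPM (207 to 255) and 254 CPM (235 to 275), followed by COP-like cells, whose intervals overlapped. The lowest were macrophage-like cells, with 10.8 and 19.2 CPM from 5 and 24 UMIs. Microglia-like, fibroblast-like and Schwann-like cells had between 21.5 and 60.5 CPM. Free RNA can give such low levels in cells that do not express a gene. After thinning to 1000 UMIs, 55.8% (39.9 to 70.9) of SMA and 61.5% (40.6 to 79.8) of Con neuron-like cells had a Snrpn UMI, against 3.33% and 3.46% of microglia-like cells, which are of another lineage, and 19.1% and 20.9% of oligodendrocyte-like cells. Without thinning, the shares were 100% and 100% in neuron-like cells, at medians of 9786 and 10095 UMIs, and 16.5% and 11.9% in microglia-like cells, at 6446.5 and 6285 UMIs. The summed level of the 11 neuron markers was 11546 and 11107 CPM in neuron-like cells. It was 633 and 694 CPM in oligodendrocyte-like cells and 73.0 and 58.9 CPM in microglia-like cells. The marker sum was 640 and 741 CPM in OPC-like, 948 and 1285 CPM in mural-like and 569 and 1347 CPM in fibroblast-like cells. Snrpn was lower in OPC-like, mural-like and fibroblast-like cells than in oligodendrocyte-like cells. The part of the marker sum in the Snrpn levels was not tested.

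As SmN replaces SmB, the UMIs of Snrpn were set against the sum of Snrpb and Snrpn. In neuron-like cells Snrpn held 81.0% (77.4 to 84.2) in SMA and 81.8% (77.7 to 85.5) in Con. In oligodendrocyte-like cells it held 47.6% (44.0 to 51.2) and 46.7% (43.9 to 49.4), in COP-like cells 33.9% and 37.8%, and in OPC-like cells 26.0% and 27.8%. The share was thus higher from OPC-like to oligodendrocyte-like cells in both libraries. In astrocyte-like cells it was 24.0% and 23.8%, in microglia-like cells 8.52% and 7.87%, and in macrophage-like cells 3.33% and 6%. Snrpb itself was between 254 and 291 CPM in astrocyte-like, oligodendrocyte-like and neuron-like cells of either library, against 491 and 504 CPM in OPC-like cells. These are shares of UMIs near the transcripts' ends and say nothing of protein.

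**Figure D4:**
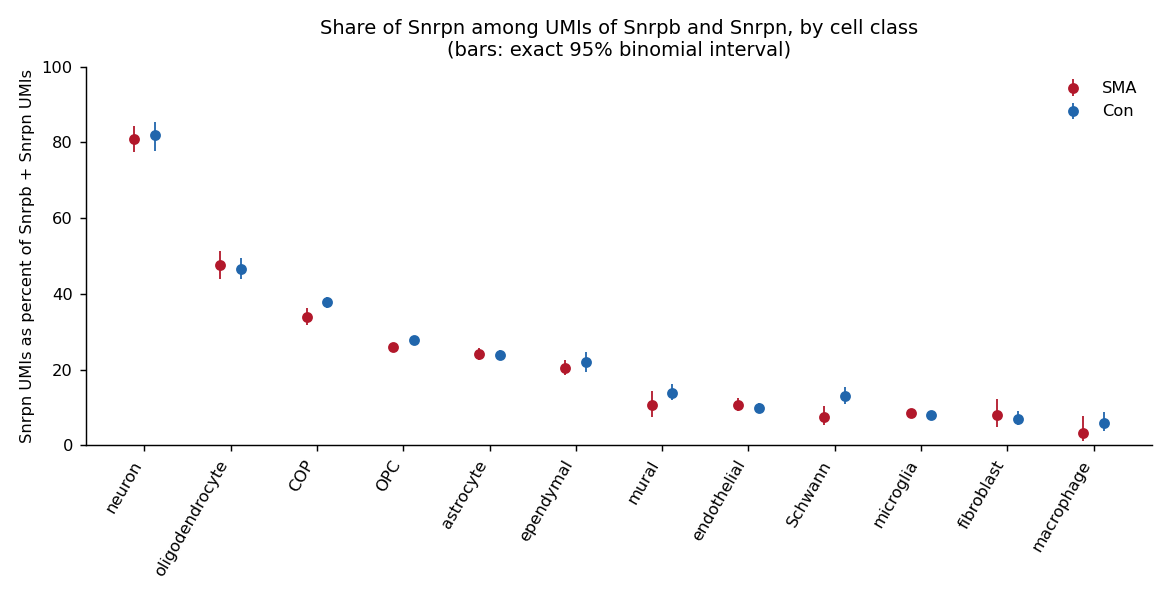
Share of Snrpn among the UMIs of Snrpb and Snrpn (percent, vertical axis) in 12 cell classes (horizontal axis, ordered by the mean of the libraries) in SMA and Con, with exact 95% binomial intervals. The share is 81.0% and 81.8% in neuron-like cells and 47.6% and 46.7% in oligodendrocyte-like cells.

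Genes that act with the Sm proteins were taken as 7 lists of 56 genes. In named cells, 3 of the 8 Sm genes were past 1.2-fold higher and 0 lower, against 19.9% and 15.3% of all 14396 genes, with the call of Snrpe lost under the 4 settings given above. Of the SMN complex, 8 of 9 genes had enough UMIs and none was past 1.2-fold in either direction. Gemin2, which binds Sm proteins before the ring is closed on the snRNA, had 15.1 CPM in SMA and 16.2 CPM in Con. Gemin6, at 14.3 and 12.2 CPM, had a log2 ratio of 0.23 (0.06 to 0.39), and Strap, at 124 and 129 CPM, one of -0.06 (-0.11 to -0.002). Of the 5 methylosome genes, 1 was past 1.2-fold higher and 1 lower. Prmt5, the arginine methyltransferase of the Sm tails, had 25.2 CPM in SMA and 32.3 CPM in Con, a log2 ratio of -0.36 (-0.47 to -0.24), and Wdr77, its partner, 23.5 and 27.8 CPM, a log2 ratio of -0.24 (-0.36 to -0.12). Coprs, another PRMT5 partner, was at 59.4 and 47.3 CPM, a log2 ratio of 0.33 (0.25 to 0.41), though its median over 8 classes was 0.02. Riok1, a PRMT5 adaptor, was at 33.4 and 33.8 CPM. Wdr77 was lower in SMA in 7 of the 7 classes in which it had enough UMIs, and Prmt5 in 4 of 5, with microglia-like cells at 0.26.

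Of the 8 genes of snRNA export, cap binding and import, none was past 1.2-fold in named cells. Phax, the export adaptor of snRNAs, had 101 CPM in SMA and 96.0 CPM in Con, and Xpo1, the export receptor, 38.7 and 33.8 CPM. Kpnb1, the import receptor importin beta, had 51.5 and 56.9 CPM, a log2 ratio of -0.15 (-0.23 to -0.06). Ncbp2, a subunit of the cap-binding complex, had 66.6 and 71.6 CPM, although its median over 10 classes was 0.10. Of the 5 proteins particular to U1 and U2, 1 was past 1.2-fold higher and 1 lower. Snrpa1, of the U2 particle, had 211 CPM in SMA and 118 CPM in Con, a log2 ratio of 0.84 (0.79 to 0.89), and was past 1.2-fold in 11 of 11 classes. Snrpa, of the U1 particle, had 95.9 and 122 CPM, a log2 ratio of -0.35 (-0.41 to -0.29), and was lower in 11 of 11 classes. Snrpb2, the U2 partner of Snrpa1, was at 63.1 and 62.5 CPM, and Snrnp70 of U1 at 229 and 242 CPM, a log2 ratio of -0.08 (-0.12 to -0.04).

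The LSm genes encode relatives of the Sm proteins that form the ring of U6 and a cytoplasmic ring of mRNA decay, and with Lsm10 and Lsm11 part of the U7 ring. Of the 10, 1 was past 1.2-fold higher and 0 lower in named cells, with a median of 0.18, against a median of 0.03 over all genes. Within classes the median of the list ran from -0.05 in mural-like to 0.53 in Schwann-like cells and was 0.06 in OPC-like, 0.03 in oligodendrocyte-like, -0.02 in ependymal-like and -0.01 in macrophage-like cells. The classes made up different shares of the named cells in the libraries. Lsm5 had 131 CPM in SMA and 105 CPM in Con, a log2 ratio of 0.33 (0.27 to 0.38), and Lsm11 11.2 and 9.50 CPM. Lsm2 was at 128 and 128 CPM, and Lsm10 was at 23.9 and 27.1 CPM, a log2 ratio of -0.18 (-0.30 to -0.06). Of the 12 genes of U5 and the tri-snRNP, 3 were past 1.2-fold higher and 1 lower. Snrnp200, the helicase that unwinds U4 from U6, had 34.2 and 25.9 CPM, a log2 ratio of 0.40 (0.29 to 0.52) with a median of 0.24 over 6 classes, and Prpf3 12.6 and 9.85 CPM. Usp39 had 21.0 and 27.6 CPM, a log2 ratio of -0.40 (-0.52 to -0.27) with a median of -0.25 over 7 classes, and Sart1 23.4 and 24.4 CPM. Of the 7 genes of the minor spliceosome, 1 was past 1.2-fold higher and 0 lower. Zcrb1 had 188 and 164 CPM and was higher in 11 of 11 classes, and Rnpc3 had 30.8 and 25.4 CPM, a log2 ratio of 0.28 (0.16 to 0.39). Zmat5, at 49.76 and 50.03 CPM, and Pdcd7, at 9.58 and 9.22 CPM, did not differ beyond counting error.

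**Figure D5:**
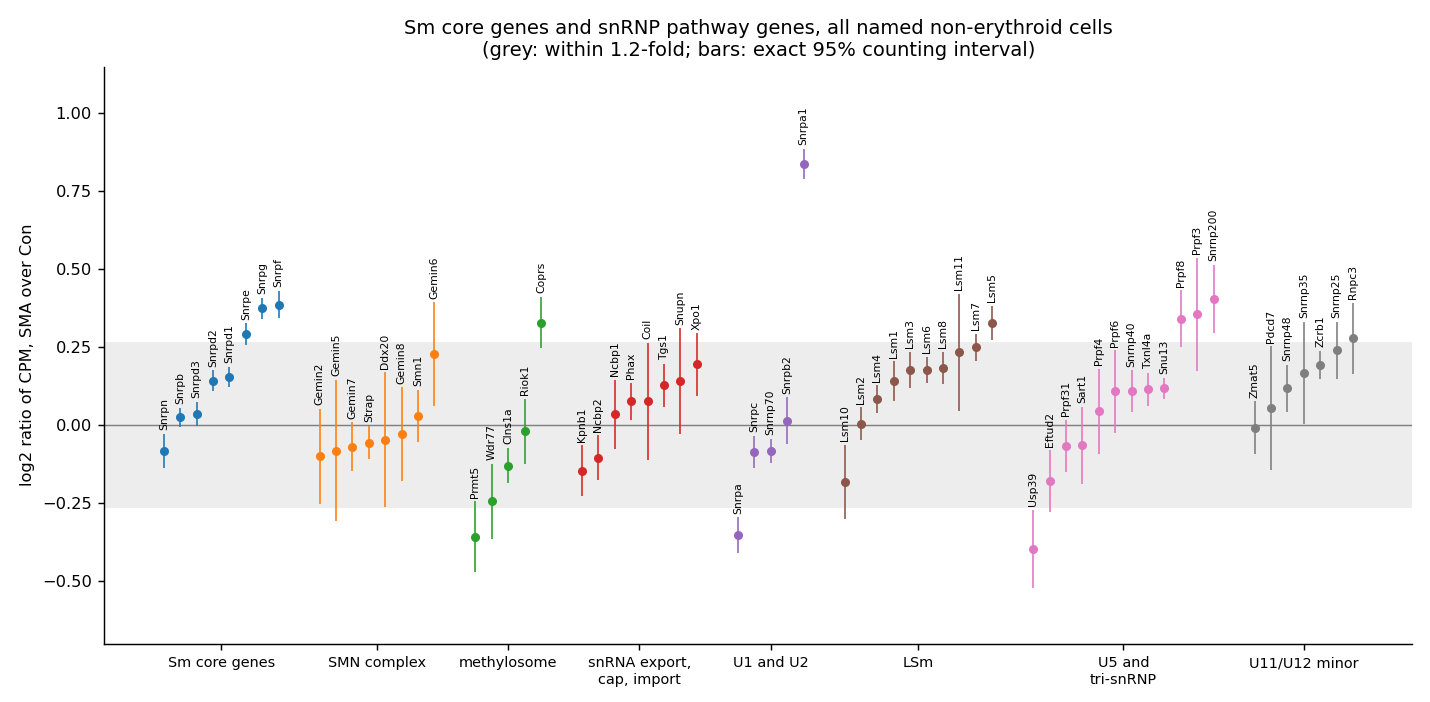
log2 ratio of CPM of SMA over Con in named cells (vertical axis) of the Sm genes and of the genes of 7 pathway lists (horizontal axis), with exact 95% counting intervals. Most genes lie in the grey band of 1.2-fold; Snrpa1 lies highest at 0.84 and Usp39 lowest at -0.40.

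In cycling OPC-like cells, 7 of 10 LSm genes were past 1.2-fold higher and 1 lower in each library, against 15.6% and 37.0% of all genes in SMA and 16.0% and 34.7% in Con, with medians of 0.60 in SMA and 0.67 in Con. Lsm2 had log2 ratios of 1.17 and 1.26. Of the 6 genes of the SMN complex with enough UMIs, 1 was past 1.2-fold higher in SMA and 2 in Con and 0 lower, with Gemin6 at 1.53 and 1.75 and list medians of 0.12 and 0.09. In astrocyte-like cells the medians of the SMN complex were 0.43 and 0.61. Past 1.2-fold, 3 of 5 genes were higher and 1 lower in SMA, against 25.3% and 30.0% of all genes. In Con 5 of 6 were higher and 0 lower, against 23.3% and 28.3%. In microglia-like cells the medians of the SMN complex were 0.50 and 0.39. The Sm genes had medians of 0.45 and 0.41, the 5 methylosome genes -0.10 and 0.08, and the 5 genes of U1 and U2 0.18 and 0.01, all in OPC-like cells. In Con microglia-like cells the median of the methylosome was 0.53. There 4 of 4 genes were past 1.2-fold higher and 0 lower, against 30.2% and 27.3% of all genes. In SMA microglia-like cells the median was -0.11, with 0 of 4 higher and 1 lower, against 25.0% and 27.5%.

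Among 5645 genes with at least 1000 UMIs in each library, the 6 whose log2 levels over the 12 classes were most like the Sm core sum were Ebna1bp2, Ssb, Snu13, Rwdd1, Lsm2 and Snrpc, with Pearson correlations of at least 0.844 in both libraries. Ssb encodes La, which binds new transcripts of RNA polymerase III. Snu13 is a protein of the tri-snRNP and of nucleolar RNPs, and Snrpc encodes a protein of the U1 particle. Among the 6 most like Snrpn were Polr2d, Paip1, Otub1, Araf and Ube2d1, with correlations of at least 0.945. The 12 classes share their library and its depth, so these values are descriptions only.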

How the data were processed

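Whole spinal cords of 1 SMA and 1 Con library were profiled by droplet single-cell RNA-seq (3′ V3 chemistry). The deposited matrices hold raw UMI counts of each gene in each barcode, which the authors produced on mm10 using Cell Ranger (4.0.0 per the file headers). All value columns were used. Barcodes with 200 to 4000 genes and under 10% mitochondrial UMIs were kept, 1 Con cluster of 1340 barcodes with over 30% ribosomal protein reads was left out, and SMA barcodes also listed in Con were left out. No doublet caller was run and the limit of 4000 genes was the only guard. The 2000 variable genes were picked with scanpy 1.11.5. Cells were clustered on 30 components by the Louvain method of igraph 0.11.9 (resolution 1) and named from fixed markers. The Sm genes, pathway lists, mitochondrial and ribosomal protein genes, Xist, Tsix, Snurf and some Y-linked genes were left out of both steps. UMIs were summed per class and library and given as CPM. log2 ratios have exact conditional binomial intervals, levels exact Poisson intervals and shares Clopper-Pearson intervals, all at 95%. The ratio script was tested on simulated data. Ratios between libraries were limited to the 11 classes of 50 cells or more per library, and to genes with 100 UMIs or more in both together. With 1 library per group no test was possible, and edgeR 4.0.16 was used only for TMM scaling. The text names all 8 Sm genes, in each pathway list the 2 genes with the highest and the 2 with the lowest median ratio over classes among those with 100 UMIs in each of the 3 largest classes, Smn1, and the 6 genes each most like the Sm core sum and Snrpn over classes. A few class markers, leading genes of clusters and quality genes are named besides. Of the genes most like Snrpn, 1 is not reported here. Promoters come from RefSeq and positions from GENCODE M21, and 93.8% of the genes compared had a transcript length. The members and lists were chosen with earlier results of these data known. Alternatives were 14 planned settings and 1 added after seeing the data, which left out the 3 classes of unequal depth.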

Additional observations from a re-analysis of the deposited data

Results flagged for a closer look

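The barcodes left out of the comparisons also held Sm transcripts. The Con cluster of high ribosomal reads had the highest Sm core sum of any set, at 4247 CPM over 1340 barcodes, where Con named cells had 1946 CPM. Within it the genes were uneven, with Snrpd2 at 1208, Snrpd1 at 929, Snrpe at 791, Snrpf at 679 and Snrpd3 at 574 CPM but Snrpb at 21.9 and Snrpg at 44.7 CPM, far below the 370 and 267 CPM of Con named cells. SMA barcodes also listed in Con had a sum of 1779 CPM over cells of every kind, erythroid and unnamed ones included. Barcodes with 10% mitochondrial UMIs or more had 2094 CPM in SMA and 1871 CPM in Con, and barcodes of over 4000 genes 1908 and 1844 CPM. All of these lie above the level that 3 counts allow, which was at most 2.73 CPM.

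Of the genes, 2 had log2 ratios of SMA over Con whose intervals lay on opposite sides of 0 in 2 classes. Snrpb was at 0.31 in fibroblast-like and -0.20 in oligodendrocyte-like cells, both of unequal depth, and its value in the latter was 0.20 with a mitochondrial limit of 20%. Its intervals also lay above 0 in Schwann-like (0.24) and microglia-like cells (0.13). Snrpd1 was at 0.50 in microglia-like and -0.36 in oligodendrocyte-like cells, where it ranged from -0.53 with the shared barcodes kept to 0.26 with a mitochondrial limit of 20%. These differences between classes were not tested.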

How the results depend on the processing

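The log2 ratio of the Sm core sum in named cells, 0.19 as reported, was 0.13 with the shared SMA barcodes kept, 0.17 with a limit of 6000 genes, 0.21 with each cell weighted equally, 0.16 with the high-ribosome cluster kept, 0.14 under TMM and 0.16 centred on the median gene. The pairs past 1.2-fold, 32 higher and 4 lower, were 21 and 2 with the shared barcodes kept and 1 and 1 at a fold of 1.5. The 4 lower pairs were 2 with a limit of 6000 genes and 2 with a minimum of 300 UMIs. Without the 3 classes of unequal depth they were 22 and 3 of 64 pairs. The cycling ratio in OPC-like cells was 0.45 in SMA with the shared barcodes kept and 0.41 in Con in cells of at least 5000 UMIs. The ratio of OPC-like over COP-like cells in SMA, 0.17 as reported, was 0.24 with the shared barcodes kept, 0.21 in cells of at least 5000 UMIs, 0.11 with a mitochondrial limit of 20%, 0.12 with a limit of 6000 genes, 0.067 at resolution 2 and 0.11 with the high-ribosome cluster kept. In Con, 0.20 as reported, it was 0.15 with a limit of 6000 genes and 0.13 at resolution 2. The cause of these shifts was not tested. The sum of Snrpe, Snrpf and Snrpg stayed between 0.25 and 0.36 under all 11 alternatives that gave it. Values near 0 changed sign under some settings. In oligodendrocyte-like cells the Sm core sum, 0.00 as reported, ranged from -0.20 with the shared barcodes kept to 0.25 with a mitochondrial limit of 20%. Snrpb and Snrpd3 in named cells fell below 0 under TMM (-0.03 and -0.02), Snrpb also when centred on the median gene and Snrpd3 with the shared barcodes kept. Snrpn rose above 0 with the high-ribosome cluster kept (0.01) and with each cell weighted equally. The Snrpn share in neuron-like cells moved by less than its interval. Leaving out a replicate was not possible with 1 library per group. No paired analysis was possible because each group is 1 library and no result comes from a test. Counting error limits Schwann-like, mural-like, macrophage-like, fibroblast-like and neuron-like cells most.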
